A study of Homo sapiens with 7 samples.

Results

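The exon junction complex was followed through 6 genes: RBM8A, MAGOH, MAGOHB, EIF4A3, CASC3 and RNPS1. Their probe sets were found by NCBI Gene ID, as those whose name opens with 9939, 4116, 55110, 9775, 22794 or 10921. Together they hold 533 of the 2108940 probe sets and 6 of the 20649 genes on the array: 68 for RBM8A, 36 for MAGOH, 70 for MAGOHB, 93 for EIF4A3, 153 for CASC3 and 113 for RNPS1. The platform annotation calls the 70 probe sets of Gene ID 55110 MAGOH, while RefSeq names that gene MAGOHB. They are called MAGOHB here. MAGOH and MAGOHB are near-identical paralogs, so how far the probe sets of one also read the other is uncertain, and the same holds for pseudogene copies of any member.

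The exon junction complex is a group of proteins that the spliceosome leaves on messenger RNA just upstream of each exon junction. EIF4A3, a DEAD-box RNA helicase, clamps the RNA, and the heterodimer of RBM8A (Y14) with MAGOH or MAGOHB locks that clamp. CASC3 (MLN51) joins them, and RNPS1 is a peripheral factor that links the complex to splicing control and to nonsense-mediated decay, the pathway that removes transcripts with a premature stop codon.

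All 7 arrays carry total RNA of HCT116, an established human colon carcinoma line, hybridised to the ExonHit Human Splice Array, on which a gene is covered by many probe sets with values of their own. The question addressed was how camptothecin (CPT), which holds topoisomerase I on the DNA it has cut, alters transcripts over time. At a dose of 10 µM, CPT was given for 1, 2 or 4 h (CPT early, n = 3) or for 15 or 20 h (CPT late, n = 2), and the solvent, 0.1% DMSO, for 4 or 20 h (DMSO, n = 2). No exposure was repeated and nothing in the labels says whether arrays come from separate cultures, so p-values weigh group differences by how far arrays of different exposures scatter within a group, be that technical or an effect of time. Comparisons with DMSO share their control arrays.

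Values are log2 signals normalized between arrays by the authors. Array medians lay between 2.87 and 2.96, Pearson r over all probe sets was 0.942 to 0.956 among DMSO and CPT early arrays and 0.845 to 0.908 between these and the late ones. Of 7 epithelial marker genes 2 were higher and 1 lower in CPT late than in DMSO, and their mean level was 6.05 to 6.21 on the DMSO and CPT early arrays and 5.91 to 6.12 on the late ones. Markers of cell types not in the culture were dim but higher late: 5 of 5 endothelial, 3 of 5 fibroblast and 1 of 4 measured leukocyte markers passed, all upward, where 51.4% of all genes passed in either direction, and the mean endothelial level went from 3.56 to 3.70 to a late 4.21 to 4.29. The median of all genes also read 0.34 higher in CPT late than in DMSO, against 0.03 in CPT early. Values with each array centred on its median gene are given for the 6 genes below, and the part of the marker shifts in the results was not tested.

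At the level of whole genes, RNPS1 and MAGOHB fell in CPT late, and the other 4 did not pass the test against DMSO. A gene value is the median over those probe sets of the gene that passed a filter on dim signal (mean over the 7 arrays above 2.95, the median of all probe sets), and limma with Benjamini-Hochberg adjustment over 16290 genes was the test, with an adjusted p under 0.05 as threshold. Of the 533 probe sets 419 passed that filter and 114 did not. Against DMSO, 2 of 6 genes passed in CPT late, both lower, where 51.4% of all genes passed. In CPT early 0 of 6 passed, with 0 at an unadjusted p under 0.05 and a background of 0.0921%. CPT late against CPT early gave 2 of 6, again both lower, against 55.2% of all genes. Counted in either direction and without centring, the share of members that passed late was thus no higher than the background. For lower calls only, it was 2 of 6 in CPT late against DMSO, where 2934 of 16290 genes passed lower. With each array centred on its median gene, 3 of 6 members passed against DMSO, all lower, where 5538 of 16290 genes passed. In these 2 counts the members' share was above that of all genes. Whether 6 genes differ from the background was not tested.

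RNPS1, the peripheral factor, read 7.50 and 7.41 on the DMSO arrays (4 and 20 h), 7.80, 7.75 and 7.35 at 1, 2 and 4 h of CPT, and 6.50 and 6.35 at 15 and 20 h. Both late arrays lay below every other array, and the 4 h array lay close to the solvent arrays. The fall against DMSO was −1.03 ± 0.22 (SE) on the log2 scale, 2.04-fold, with an adjusted p of 0.00436 by limma. Between CPT early and CPT late it was −1.21 ± 0.20, with an adjusted p of 0.00109. At the matched exposure of 20 h the difference between CPT and DMSO was −1.06, and at 4 h it was −0.16. The call was kept under all 15 alternatives, with values from −1.26 to −0.84 and an adjusted p of at most 0.0350.

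MAGOHB, the partner of RBM8A encoded by the second MAGO gene, read 5.35 and 4.96 in DMSO, 5.26, 4.90 and 5.09 in CPT early, and 4.04 and 4.59 in CPT late. The late arrays were again the lowest of the 7. The fall was −0.84 ± 0.24 (SE), 1.79-fold, with an adjusted p of 0.0166, and against CPT early it was −0.77 ± 0.22 with an adjusted p of 0.0151. At the matched 20 h the difference was −0.37, and between the DMSO arrays, 20 h minus 4 h, it was −0.39. Without the DMSO 4 h array the value was −0.64 (adjusted p 0.112), and without the CPT 15 h array −0.57 (adjusted p 0.125), neither of which passed. The call was also lost with no filter on dim probe sets (−0.59, adjusted p 0.0896) and with B, F and T probe sets only (−0.41, adjusted p 0.227). Against CPT early it was lost without the CPT 15 h array (−0.50, adjusted p 0.143).

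RBM8A itself, the heterodimer partner of MAGOH or MAGOHB, read 8.33 and 8.35 in DMSO, 8.61, 8.44 and 8.56 in CPT early and 8.43 and 8.78 in CPT late. All 5 CPT arrays lay above both DMSO arrays, but the early and late ranges overlapped. The late difference of 0.27 ± 0.17 (SE) gave an adjusted p of 0.205 and the early one of 0.20 ± 0.16 an adjusted p of 0.863. With no filter on dim probe sets the late difference was 0.75 and passed (adjusted p 0.0159), whereas with B, F and T probe sets only it was −0.11.

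MAGOH read 6.99 and 6.53 in DMSO, 6.82, 7.09 and 6.91 in CPT early and 6.84 and 6.34 in CPT late. The 3 groups overlapped, and the difference between the DMSO arrays alone, 20 h minus 4 h, was −0.46. Its late difference was −0.17 ± 0.25 (SE), with an adjusted p of 0.576. EIF4A3, the helicase, read 7.64 and 7.37 in DMSO, 7.76, 7.70 and 7.93 in CPT early and 7.51 and 7.68 in CPT late. Its early arrays were the highest 3, by 0.30 ± 0.18 over DMSO with an adjusted p of 0.789, and late and DMSO arrays overlapped, with a difference of 0.09 and an adjusted p of 0.695.

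CASC3, the core subunit that joins the clamp, read 6.93 and 6.87 in DMSO, 6.77, 7.09 and 6.76 in CPT early and 6.39 and 6.52 in CPT late. Its late arrays were the lowest of the 7 and did not overlap with any other. The difference of −0.44 ± 0.21 (SE) gave an adjusted p of 0.0986. With each array centred on its median gene, which removes the general upward shift, it was −0.67 and passed (adjusted p 0.0431). Under the same centring RNPS1 differed by −1.26, MAGOHB by −1.07, MAGOH by −0.40, EIF4A3 by −0.14 and RBM8A by 0.03.

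**Figure D1:**
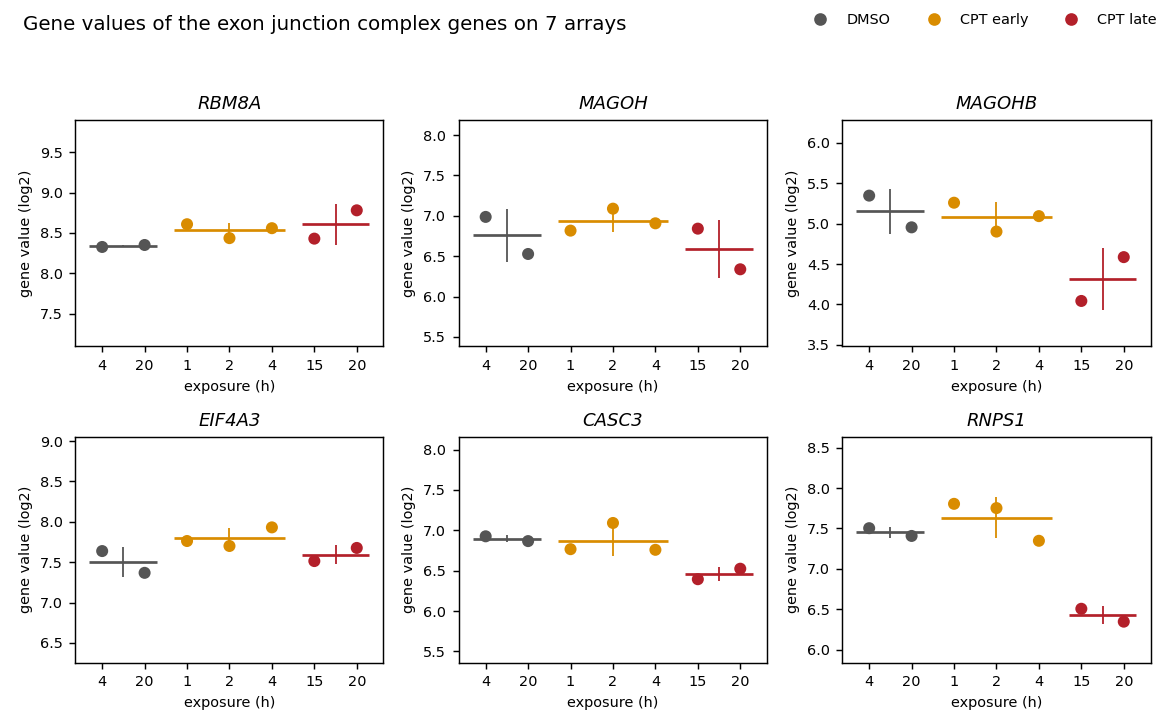
Gene value (log2) of each member against exposure (h), 1 point per array, with grey for DMSO (4 and 20 h), orange for CPT early (1, 2 and 4 h) and red for CPT late (15 and 20 h). Horizontal lines are group means, vertical bars the SD, exposures are set out in order and not to scale, and each panel spans the same range of log2 units around its own mean; the red points lie lowest in MAGOHB, CASC3 and RNPS1.

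Across the 7 arrays the gene values of RNPS1, CASC3 and MAGOHB ran alike, with a Pearson r of 0.862 for RNPS1 with CASC3, 0.808 for RNPS1 with MAGOHB and 0.738 for CASC3 with MAGOHB. RBM8A ran with none of these, at −0.42, −0.46 and −0.15. These are descriptions over 7 arrays that share treatments. The genes whose values over the 7 arrays were most like each member were, by Pearson r, ELF5 (0.974) and NOVA1 (0.971) for RBM8A, ALG14 (0.996) and HARS1 (0.962) for MAGOH, PPP2R2D (0.993) and EIPR1 (0.990) for MAGOHB, CXorf38 (0.982) and CD59 (0.971) for EIF4A3, AGO3 (0.994) and MCM9 (0.992) for CASC3, and EXT1 (0.994) and MAP4K4 (0.993) for RNPS1. With so few arrays an r over 0.9 is common for some members: 10.4% of all genes reached it with RNPS1, 2.67% with MAGOHB and 2.06% with CASC3. It was rarer for MAGOH (0.227%), RBM8A (0.147%) and EIF4A3 (0.104%).

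The whole-gene value hides how single probe sets behaved. A probe set name has a number and a letter (B, C, D, E, F, T, X, Y or Z), and the probe sets that share a number are called an event here. What the letters and numbers stand for, which exon or junction a probe set reads and its sequence were not found in the sources used here, so probe sets of a gene may read the same stretch and do not count as independent. To follow a probe set apart from its gene, the gene value on the same array was subtracted from its log2 value, which gives its relative value. It was tested with limma over 952133 probe sets. In CPT late against DMSO 34 of the members' 419 probe sets passed (8.11%), 23 higher and 11 lower, where 5.46% of all probe sets passed. In CPT early 0 of 419 passed, with 17 at an unadjusted p under 0.05, against 0.00168% of all probe sets. CPT late against CPT early, a comparison chosen after the data were seen, gave 36, of which 21 were higher and 15 lower, against 5.83%.

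The passing probe sets were spread unevenly. MAGOHB had 9 of 53 (17.0%) and RNPS1 14 of 99 (14.1%), while MAGOH had 2 of 26 (7.69%), CASC3 7 of 117 (5.98%), RBM8A 1 of 57 (1.75%) and EIF4A3 1 of 67 (1.49%). RNPS1 and MAGOHB are also the members whose gene value fell. Because the gene value is subtracted, its fall adds to the relative change of each probe set of that gene. The median absolute relative change was 1.01 in RNPS1 and 0.99 in MAGOHB, 0.59 in CASC3, 0.37 in RBM8A, 0.34 in MAGOH and 0.32 in EIF4A3. These counts rest on single arrays. They fell without either DMSO array and without CPT 20 h, as did the number passing over all probe sets. In none of those fits was the members' share above that of all probe sets. The members' number was 22 of 419 without either CPT 1 h or CPT 4 h, where 39731 and 42887 of all 952133 probe sets passed. Without CPT 15 h the number was 35, but the balance turned to 11 higher and 24 lower, and with the mean in place of the median as gene value it was 22 higher and 30 lower. For CPT late against CPT early the balance turned likewise, to 7 higher and 25 lower without CPT 15 h, 18 and 31 with the mean, and 18 and 32 with the stricter filter at the 0.75 quantile. Which direction prevailed among the members' probe sets thus depended on these choices.

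**Figure D2:**
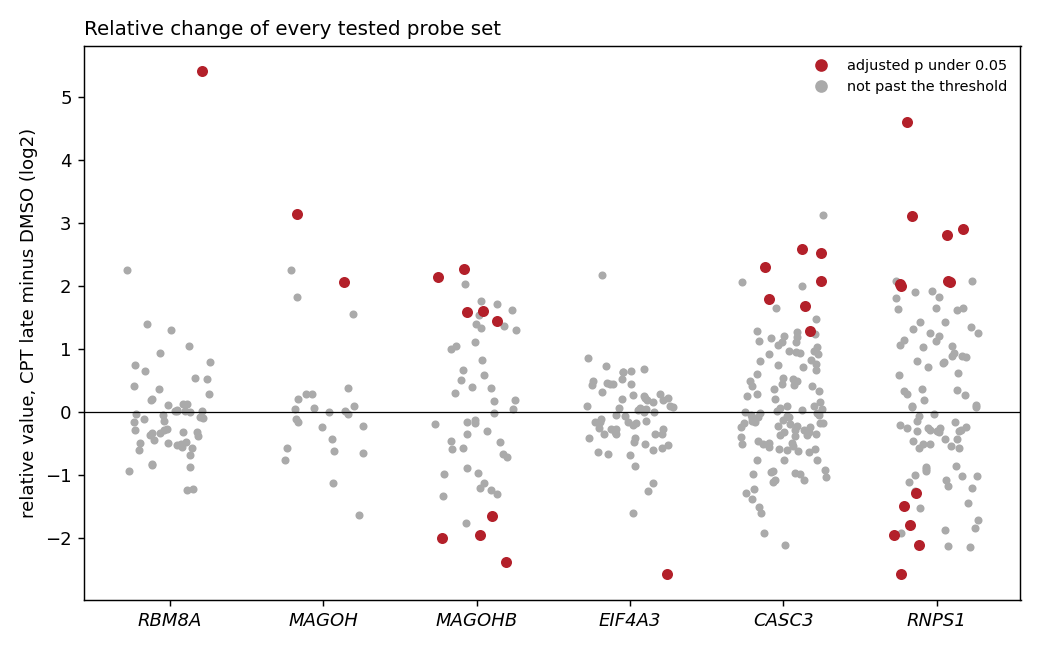
Relative value of the members' 419 tested probe sets, CPT late minus DMSO (log2), by gene, with red for an adjusted p under 0.05 and grey for the others; points are spread sideways at random. A single RBM8A probe set stands at 5.40 above a narrow band, while RNPS1 and MAGOHB spread widely to both sides.

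RBM8A held the largest change of any member in 018.1-E. This probe set read 4.43 and 4.56 in DMSO, 5.57, 6.33 and 6.90 at 1, 2 and 4 h of CPT, and 9.68 and 10.64 at 15 and 20 h. Each longer exposure to CPT read higher than the one before, and all 5 CPT arrays lay above both DMSO arrays, which differed by 0.13. Its group means were 4.49 ± 0.09 (SD, n = 2) in DMSO, 6.27 ± 0.67 (n = 3) in CPT early and 10.16 ± 0.68 (n = 2) in CPT late, and the late level was 50.9-fold that of DMSO. At matched exposure the difference between CPT and DMSO was 2.47 at 4 h and 6.09 at 20 h.

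Relative to the gene, RBM8A 018.1-E rose by 5.40 ± 0.55 (SE) in CPT late, with an adjusted p of 0.00152 by limma. It ranked 85 of 952133 probe sets by relative increase, and 26 of the 78080 that carry the letter E. The early difference of 1.58 ± 0.50 had an adjusted p of 0.776. Between CPT early and CPT late the rise was 3.82 ± 0.50, with an adjusted p of 0.00319. Both late calls were kept under all 12 alternatives, at 4.92 to 5.71 with an adjusted p of at most 0.0212 for CPT late against DMSO.

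The other probe sets of the same RBM8A event did not share that course. The F probe set read 11.51 and 11.50 in DMSO, 11.62, 11.45 and 11.44 in CPT early and 11.38 and 11.45 late. The D probe set read 10.76 and 10.50, then 10.78, 10.52 and 10.70, then 10.18 and 9.95. It was lowest on the late arrays, but its relative change of −0.83 did not pass (adjusted p 0.145). The C probe set was dim, with 4.45 and 3.75, then 3.95, 2.84 and 3.12, then 2.16 and 4.12, and its groups overlapped. Both B (9.34 to 9.84) and T (9.20 to 9.83) stayed within a log2 unit over all 7 arrays. Over the other 56 RBM8A probe sets the relative change ran from −1.23 to 2.25 with a median of −0.10, and the lowest adjusted p was 0.0796, that of 009.1-B.

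**Figure D3:**
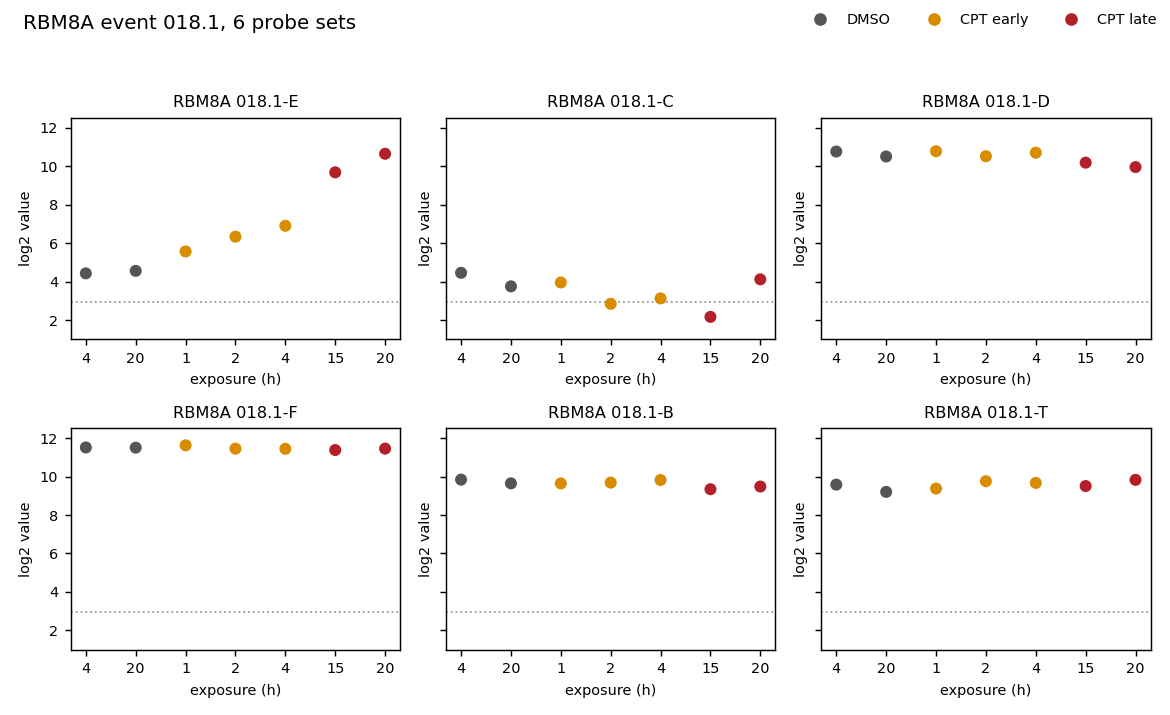
Log2 value of the 6 probe sets of RBM8A event 018.1 against exposure (h, in order and not to scale), 1 point per array, coloured by group as DMSO (grey), CPT early (orange) and CPT late (red); the dotted line is the filter value of 2.95. The E probe set climbs from 4.43 to 10.64, while F, B and T stay level and C stays near the dotted line.

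RNPS1 probe sets moved apart in both directions. The largest fall was in 005.1-E, which read 8.94 and 9.10 in DMSO, 9.21, 8.72 and 9.07 in CPT early, and 6.43 and 4.42 late. The 5 other arrays spanned less than a log2 unit, and the late level was 12.1-fold lower than in DMSO. Relative to the gene it fell by 2.56 ± 0.54 (SE), with an adjusted p of 0.0222. The probe set 017.1-E followed the same course (9.01 and 9.06, then 9.30, 8.66 and 8.84, then 6.89 and 4.91) and fell by 2.10 with an adjusted p of 0.0427. Along with 000.2-Y below, 017.1-E was singled out after its values were seen. The C probe set of event 010.1, with 8.86 and 9.10, then 9.25, 8.60 and 8.85, then 6.92 and 4.71, looked alike but did not pass (−2.14, adjusted p 0.0544).

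Others of RNPS1 rose while the gene fell. The E probe set of event 010.1 read 4.39 and 3.79 in DMSO, 5.45, 5.38 and 5.33 in CPT early, and 5.99 and 6.34 late, so that the 3 groups did not overlap. It rose by 3.11 ± 0.49 (SE) relative to the gene (adjusted p 0.00685) and by 2.08 in level. The probe set 000.2-Z read 3.19 and 2.11, then 3.45, 5.49 and 5.70, then 5.96 and 6.48, a relative rise of 4.60 ± 0.81 with an adjusted p of 0.0108, but its DMSO mean of 2.65 lay under the filter value. Its companion 000.2-Y was brighter in DMSO, with 5.98 and 5.15, then 5.79, 6.41 and 6.13, then 7.24 and 7.63, and rose by 2.90 (adjusted p 0.00935). Without the CPT 20 h array 005.1-E (−1.64, adjusted p 0.0989), 010.1-E (2.85, 0.0611) and 000.2-Z (4.26, 0.0861) no longer passed, and 005.1-E and 000.2-Z also missed without either DMSO array.

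**Figure D4:**
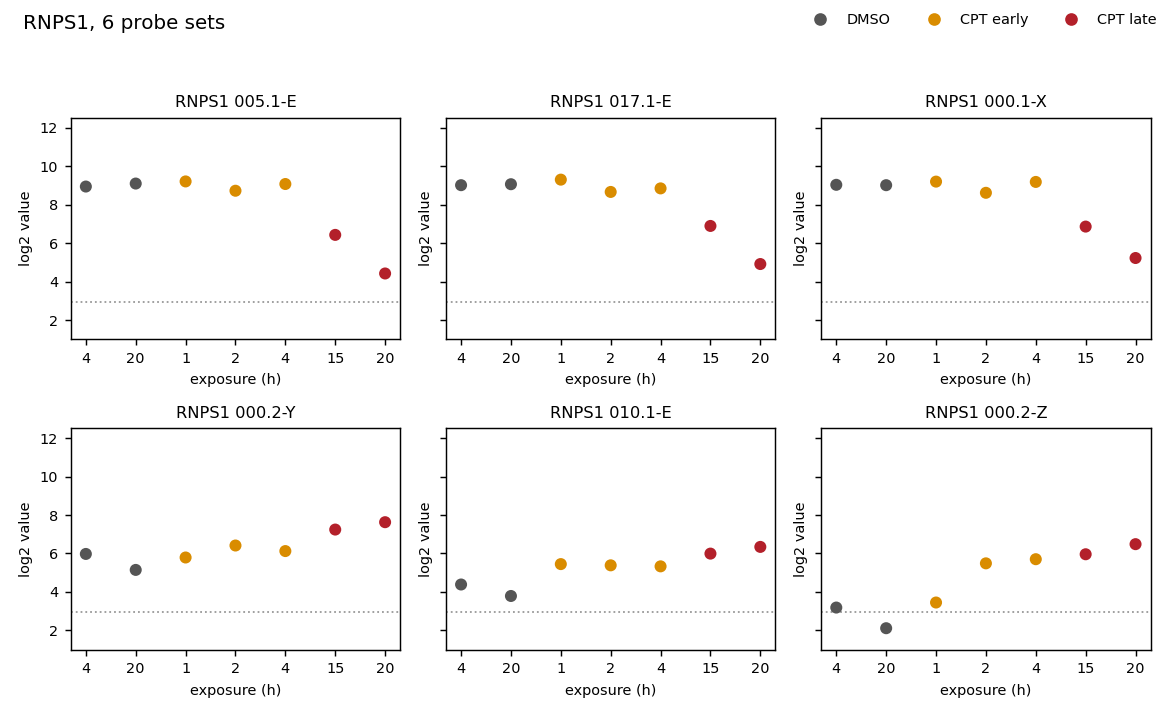
Log2 value of 6 RNPS1 probe sets against exposure (h, in order and not to scale), 1 point per array, in grey for DMSO, orange for CPT early and red for CPT late; the dotted line is the filter value of 2.95. The 3 probe sets with the largest passing relative decrease (top) and increase (bottom) are drawn. In the top panels both late arrays drop below all others, to 4.42 in 005.1-E, and in the bottom panels they are the highest.

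MAGOHB lost signal in 009.1-T, which read 6.19 and 5.97 in DMSO, 5.90, 6.56 and 6.29 in CPT early, and 3.45 and 2.28 late. The relative fall was 2.38 ± 0.55 (SE), with an adjusted p of 0.0322. The probe set 007.1-E read 6.63 and 5.22, then 5.26, 4.97 and 4.95, then 3.27 and 2.91, and fell by 2.00 (adjusted p 0.0358). In both the late arrays were the lowest, and in 007.1-E the DMSO 4 h array stood above all others. The largest relative increases were in 007.1-B (2.27, adjusted p 0.0283) and 002.1-C (2.14, adjusted p 0.0325). In level their late means lay 1.43 and 1.30 above DMSO, as the gene value itself fell. At 15 and 20 h of CPT 007.1-B read 4.77 and 6.37, the former among its early values of 4.33 to 5.93. In 002.1-C these readings were 5.94 and 7.10, against 4.69 and 5.74 in DMSO. Each of these 4 lost its call without the DMSO 4 h array and without the CPT 20 h array, with adjusted p-values between 0.148 and 0.255. Calls were also lost for 009.1-T and 007.1-B without DMSO 20 h, for 002.1-C without CPT 15 h and for 007.1-E without any 1 CPT early array.

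MAGOH had 2 passing probe sets, both higher. The larger change was in 000.2-Y, which read 2.52 and 2.74 in DMSO, 4.48, 5.07 and 5.51 in CPT early, and 5.16 and 6.04 late. All 5 CPT arrays lay above both DMSO arrays, and early and late arrays overlapped. The relative rise was 3.13 ± 0.60 (SE, adjusted p 0.0157), and the DMSO mean of 2.63 lay under the filter value, so the probe set entered the test through its CPT arrays. The difference between CPT early and DMSO had an adjusted p of 0.632, and the late call was lost without DMSO 4 h (adjusted p 0.122) or CPT 20 h (0.118). Of the others named by rule, 005.1-E (2.26, adjusted p 0.0933), 002.1-C (−1.63, 0.0902) and 000.2-X (−1.12, 0.405) did not pass.

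EIF4A3 was the most even member, with 1 passing probe set. This was 000.6-X, which read 5.97 and 5.91 in DMSO, 4.42, 5.41 and 5.32 in CPT early, and 3.29 and 3.62 late. The 3 groups did not overlap, and the relative fall was 2.58 ± 0.53 (SE) with an adjusted p of 0.0201. Its early difference had an adjusted p of 0.843. Leaving out any DMSO or late array ended the call, with adjusted p-values from 0.0753 to 0.105. The next in size, 000.11-Y (2.17, adjusted p 0.0543) and 005.1-D (−1.60, 0.0795), did not pass, nor did 008.1-T (0.86, 0.295).

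CASC3 had 7 passing probe sets, all higher relative to the gene. Among them 000.13-Y read 2.78 and 2.45 in DMSO, 4.24, 3.77 and 4.05 in CPT early, and 3.87 and 5.65 late, with a relative rise of 2.59 ± 0.62 (SE) and an adjusted p of 0.0370. Its late value at 15 h lay among the early ones, so the groups under CPT overlapped, and the call was lost without either DMSO array or without the 1, 4 or 20 h CPT array (adjusted p up to 0.218). The probe set 000.3-Z had the largest relative difference, 3.12, but did not pass (adjusted p 0.135). It read 2.02 and 1.85 in DMSO, with a mean of 1.94 under the filter value, then 2.80, 2.74 and 3.54 in CPT early, and 2.27 and 6.98 late. The difference thus rested on the 20 h array, and was 0.84 (adjusted p 0.593) without it and 5.41 (adjusted p 0.00889) without the 15 h array. The largest decreases, 018.1-C (−2.11, adjusted p 0.0643) and 000.7-X (−1.91, 0.0862), did not pass against DMSO either. Of the members' 23 higher probe sets 4 had a DMSO mean under the filter value: 000.2-Y of MAGOH, 000.13-Y and 024.1-E of CASC3, and 000.2-Z of RNPS1.

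By letter, the members' 13 Y probe sets had the highest median relative change in CPT late, 1.91, with 5 higher and 0 lower, where the 33441 Y probe sets of all genes had a median of 0.55 and 10.9% passed. The 16 Z probe sets followed with a median of 1.15 and 2 higher, against 0.42 and 8.61% for all genes. The members' Y and Z values include probe sets with a DMSO mean under the filter value, which entered through their CPT arrays. Among these were MAGOH 000.2-Y, CASC3 000.13-Y, EIF4A3 000.11-Y, RNPS1 000.2-Z and CASC3 000.3-Z. The filter thus favours rises in these letters, and their medians are no independent support for a rise. The 45 E probe sets had a median of 0.15 with 4 higher and 3 lower, close to the 0.16 of all E probe sets, of which 7.31% passed. The 68 T (−0.27, 0 higher and 2 lower) and 40 X probe sets (−0.32, 0 higher and 2 lower) lay lower, where all T and X probe sets had medians of −0.09 and −0.06 and 3.2% and 6.17% passed. The 67 B probe sets had a median of 0.30 with 6 higher and 0 lower, against 0.05 and 5.75% passing for all genes.

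Within an event, E was then set against C and D, and F against B and T, on the same array. The contrast is the log2 value of E minus the mean of C and D, and only its difference between groups is read, since levels of different probe sets are not comparable. Against DMSO, E minus C and D passed in CPT late in 21 of the members' 58 events (36.2%), 15 higher and 6 lower, where 16.6% of 100283 events passed. In CPT early 0 of 58 passed by limma, with 3 at an unadjusted p under 0.05, against 0% of all events, of which 5532 had such an unadjusted p. Over all events the late median was 0.35 and 64.5% lay above 0. F minus B and T passed in 1 of 59 events in CPT late, where 0.69% of 163229 passed, and in 0 of 59 in CPT early, with 5 at an unadjusted p under 0.05, against 0% of all.

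By member, E minus C and D passed in 6 of 11 RNPS1 events, 8 of 17 of CASC3, 5 of 9 of MAGOHB, 1 of 3 of MAGOH, 1 of 8 of RBM8A and 0 of 10 of EIF4A3, where 1 had an unadjusted p under 0.05. Among the 15 higher events the E level was higher by at least 1 log2 unit in 6 and the mean of C and D was lower by at least 1 in 11, and in 11 the drop of C and D was larger than the gain of E. Among the 6 lower events the E level was lower by at least 1 in 5. Most of the higher contrasts thus came with dimmer C and D probe sets, and most of the lower ones with a dimmer E. In DMSO the mean contrast lay below 0 in the higher events, down to −6.90 in RNPS1 018.1, except in CASC3 022.1 (0.81). It lay above 0 in the lower events, from 1.31 in MAGOHB 007.1 to 6.78 in CASC3 009.1. Among the passing events, CASC3 022.1 apart, the direction thus went with the sign of the contrast in DMSO. Events that did not pass did not all follow this. As levels of different probe sets are not comparable, that sign does not tell which transcript form was more abundant. How far a dim starting level set the direction was not tested. The count fell without the DMSO 4 h array and without CPT 20 h, as did the count over all events. It was 7 of 27 where C, D and E each had to pass the filter, against 2423 of all 26509 events.

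RBM8A event 018.1 had the largest contrast among the members. It read −3.18 and −2.57 in DMSO, −1.80, −0.35 and −0.01 in CPT early, and 3.51 and 3.61 in CPT late. The 3 groups did not overlap, and the late arrays stood apart from all others by more than 3 log2 units. The rise was 6.43 ± 0.59 (SE) with an adjusted p of 0.000245, which ranked 28 of 100283 events by absolute size. It was made up of 5.67 in E, −0.96 in C and −0.56 in D. The early difference was 2.16 ± 0.54, with an unadjusted p of 0.00160 and an adjusted p of 0.815. F minus B and T of the same event differed by −0.06 (adjusted p 0.962). The late call was kept under all 10 alternatives, at 6.13 to 6.74.

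In RNPS1, event 010.1 rose by 4.92 ± 0.62 (SE), with an adjusted p of 0.000507 and rank 201. Its contrast was −4.94 and −5.62 in DMSO, −4.08, −3.77 and −3.88 in CPT early, and −1.42 and 0.71 late. Here E was higher by 2.08 while C and D were lower by 3.17 and 2.52. Event 005.1 went the other way, from 4.51 and 4.63 in DMSO and 4.58, 5.58 and 4.86 in CPT early to 1.86 and 0.43 late, a fall of 3.42 ± 0.56 with an adjusted p of 0.00167. Its E was lower by 3.59, C was higher by 0.61 and D lower by 0.95. Both calls were kept under all 10 alternatives. The other 4 passing RNPS1 events rose by 1.71 (008.1), 2.17 (009.1), 2.50 (013.2) and 2.23 (018.1), in each of which C and D were lower by 0.92 to 2.82. These 4 lost their call under at least 1 alternative. The 1 passing contrast of F with B and T was RNPS1 001.1 (2.66, adjusted p 0.0478). Leaving out any array ended that call. The number of such events passing over the whole array then also fell, from 1127 to at most 252 of 163229, so the loss is not particular to RNPS1 001.1.

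MAGOHB had 3 events that fell and 2 that rose. The contrast fell by 2.88 in 006.1, by 2.89 in 007.1 and by 2.62 in 009.1, with adjusted p-values of 0.00582, 0.00723 and 0.00653, and in each E was lower by more than 2. Event 009.1 read 3.96 and 4.03 in DMSO, 3.97, 4.20 and 4.90 in CPT early, and 0.67 and 2.07 late, with both late arrays far below the rest. The rises were 2.59 in 012.1 (adjusted p 0.00760) and 2.08 in 005.1 (0.0362), where C and D were lower by 1.03 to 2.17. The 1 MAGOH event that passed, 002.1, rose by 2.45 (adjusted p 0.0340), with 1.05 at 20 h and −1.37 at 15 h, the latter among the early values. All 6 of these calls were lost under at least 1 alternative.

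CASC3 events changed less. The contrast rose by 2.26 in 018.1 (adjusted p 0.00677), 1.90 in 011.1, 1.88 in 006.1, 1.69 in 022.1, 1.68 in 007.1 and 1.62 in 020.1. It fell by 1.78 in 010.1 (adjusted p 0.0257) and by 1.43 in 009.1 (adjusted p 0.0437). In 018.1 it read −5.14 and −4.43 in DMSO, −4.98, −5.28 and −4.61 in CPT early, and −2.69 and −2.35 late, with E higher by 0.21, C lower by 2.54 and D lower by 1.55. Each of the 8 lost its call under at least 1 alternative. In 022.1, by contrast, E was higher by 1.35 and C and D were lower by 0.44 and 0.23.

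**Figure D5:**
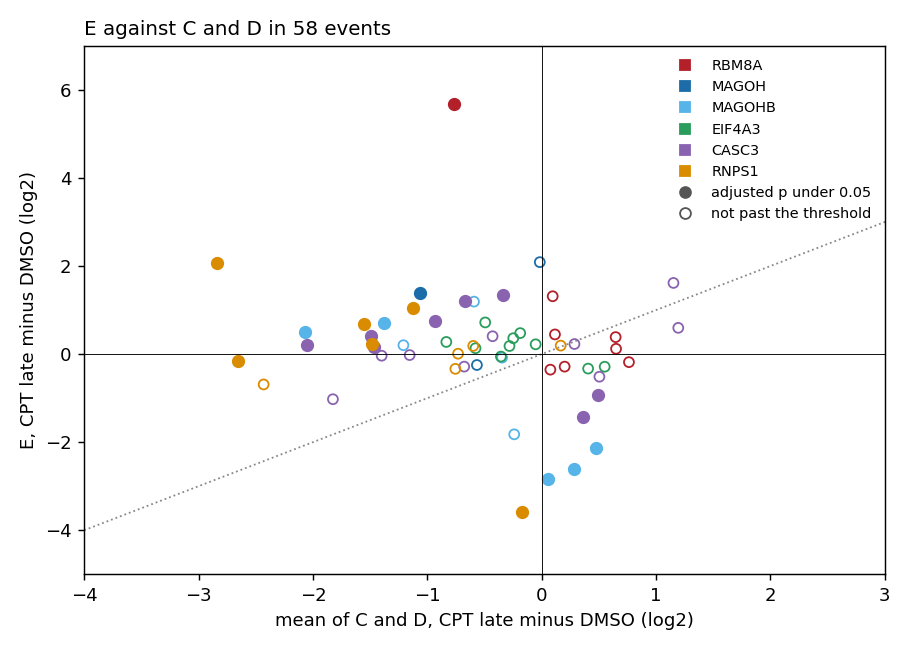
Change in the E probe set against the mean change in C and D, CPT late minus DMSO (log2), for the members' 58 events, coloured by gene; filled points passed the test of E minus C and D, and the dotted line marks equal change. RBM8A 018.1 sits alone at 5.67 on the E axis, and the other filled points above the line also lie to the left of 0, where C and D were dimmer.

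Genes that work with the complex were read from lists drawn up with earlier results of these data known. Of 10 partners and assembly factors 9 were measured, and in CPT late 2 were higher and 4 lower than in DMSO, with a median of −0.40, where 51.4% of all genes passed. CWC27, a spliceosomal cyclophilin that binds EIF4A3 during assembly, read 7.31 and 7.17 in DMSO, 7.31, 7.28 and 7.38 in CPT early and 5.46 and 5.04 late, a fall of 2.00 (adjusted p 0.000107). SRRM1, a splicing coactivator found with RNPS1, fell by 1.20 (adjusted p 0.000281). NCBP2, the small subunit of the nuclear cap-binding complex, rose by 1.09 (adjusted p 0.00345), and IPO13, which carries the RBM8A and MAGOH dimer into the nucleus, rose by 0.93 (adjusted p 0.00216).

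Of 12 nonsense-mediated decay genes 9 were measured, and 2 were higher and 4 lower late, with a median of −0.17, against the same 51.4% of all genes passing. UPF2, which bridges the complex-bound factors to UPF1, fell by 1.73 (adjusted p 0.000487) and SMG1, the kinase of UPF1, by 1.39 (adjusted p 0.00397). SMG8, a regulatory partner of SMG1, rose by 1.37 (adjusted p 0.00527), and SMG9 fell by 0.56 (adjusted p 0.0311). UPF1 itself differed by 0.05 and did not pass (adjusted p 0.853).

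Of 15 mRNA export genes 14 were measured, with 3 higher and 4 lower late and a median of −0.21, a share that passed no higher than the 51.4% of all genes. THOC2, a scaffold of the THO complex, read 6.56 and 6.31 in DMSO, 6.73, 6.68 and 6.54 in CPT early and 3.84 and 3.29 late, and fell by 2.87 (adjusted p 3.60e-05). ZC3H11A fell by 2.36 (adjusted p 8.58e-05) and THOC1, another THO subunit, by 1.27 (adjusted p 0.000670), while NXT1, a cofactor of the export receptor, rose by 1.10 (adjusted p 0.0300). The EIF4A3 paralogs EIF4A1 and EIF4A2, translation helicases, both missed the threshold, the larger difference being 0.36 for EIF4A1 (adjusted p 0.0766). In CPT early 0 genes of these 4 lists passed by limma, with 2 at an unadjusted p under 0.05. The medians of the partner, decay and export lists lay below the 0.34 of all genes. CWC22, UPF3A, UPF3B and NXF1 were among the genes not analysed here.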

How the data were processed

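The authors deposited 1 log2 value per probe set and array, and RMA, Partek 6.08 and R 2.11.1 appear, without a stated role, per the submitters' processing notes. The log2 scale was inferred from the deposited values, which reach 13.6. How background was corrected and which genome build the array used are not given in the sources consulted. The 6 members and the gene lists were chosen with earlier results of these data known, although the rule that assigns probe sets to members reads only the Gene ID in a probe set's name.

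The platform annotation lists 1901289 probe sets (90.2%), and the 207651 unlisted ones (9.85%) stayed out of the fits. Gene symbols came from RefSeq (GRCh38.p14), which holds 17412 of the 17646 identifiers. Probe sets with a mean over 7 arrays above 2.95 were kept. A gene value is the median of at least 3 kept probe sets, and relative values were formed for genes with at least 5. Events entered when the mean over their used probe sets passed the same filter. Limma 3.58.1 in R 4.3.3 estimated a mean for each of the 3 groups from all 7 arrays (residual degrees of freedom: 4), with an intensity trend except for events, and p-values were adjusted by Benjamini-Hochberg over the whole table. The steps were tested on simulated data. Tables and figures used Python 3.11.15, the R package data.table (version 1.17.8), pandas 2.3.3 and matplotlib 3.10.9.

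The rule for named probe sets took, per member, the 2 with the largest positive and the 2 with the largest negative relative difference in CPT late, and every event that passed, with up to 4 genes past the threshold per list. Alternatives were the mean for the median, no filter or one at the 0.75 quantile, quantile re-normalization, centred arrays, eBayes without the trend or robust, B, F and T probe sets only, filters on events, and each array left out in turn. CPT late against CPT early for relative values was chosen after seeing the data. The number of arrays limits the precision.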

Additional observations from a re-analysis of the deposited data

Results flagged for a closer look

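The difference between CPT late and CPT early was itself tested with limma. Of the members' gene values and of the probe sets that were named by rule, 9 passed. Over the whole array 55.2% of genes and 5.83% of probe sets passed. The rule named probe sets by their extreme difference between the same late arrays and DMSO, which favours passing here, so these calls are no independent support. The gene values of RNPS1 (−1.21) and MAGOHB (−0.77) were lower late than early on the log2 scale. Relative to their gene, RBM8A 018.1-E was higher late by 3.82, RNPS1 010.1-E by 1.99 and MAGOHB 002.1-C by 1.88. Lower late than early were MAGOHB 009.1-T (−2.62), CASC3 018.1-C (−2.40), RNPS1 005.1-E (−2.37) and CASC3 000.7-X (−2.09). Of these, CASC3 018.1-C and CASC3 000.7-X did not pass against DMSO.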

How the results depend on the processing

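Of 73 results for single genes, probe sets and events 44 passed, and 7 of these kept their call under every alternative: RNPS1 as a gene in both late comparisons, RBM8A 018.1-E in both, and E minus C and D of RBM8A 018.1, RNPS1 005.1 and RNPS1 010.1. Over the 44 passing results there were 485 alternative values, of which 346 kept direction and call, 139 kept the direction only, 118 of them with 1 array left out, and 0 reversed. The cause of these losses was not tested beyond the fewer arrays.

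Counts of members' calls moved as follows. At gene level 1 passed in CPT late with B, F and T probe sets only, and 1 to 2 with an array left out, in CPT late against DMSO as against CPT early. Relative probe sets passing in CPT late numbered 52 (22 higher, 30 lower) against the mean of the gene and 1 to 35 with an array left out, and 3 to 32 for CPT late against CPT early. E minus C and D passed in 7 events with each probe set filtered and in 6 to 20 with an array left out, and F minus B and T in 0 to 0.

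Directions turned in results that did not pass. For CPT late against DMSO, MAGOH read 0.0501 with the mean, 0.0853 with no filter and 0.0626 with the stricter filter, and −0.42 to 0.0842 with an array left out (above 0 without DMSO 4 h, 0.0621, or CPT 20 h). EIF4A3 read −0.15 with the stricter filter, −0.14 centred and −0.0426 to 0.23 with an array left out (below 0 without DMSO 20 h), and RBM8A −0.11 with B, F and T only. For CPT early against DMSO, MAGOHB read 0.0291 with the mean, 0.0763 with no filter, 0.0587 with the stricter filter, 0.38 with B, F and T and −0.26 to 0.13 with an array left out. CASC3 read 0.0256, 0.13 and 0.0191 with the mean, no filter and B, F and T, and −0.13 to 0.0326 with an array left out. RNPS1 read −0.0350 with the stricter filter and −0.0472 with B, F and T, and MAGOH −0.11 with B, F and T and −0.0491 to 0.41 with an array left out. For CPT late against CPT early, RBM8A read −0.15 centred, −0.22 with B, F and T and −0.10 to 0.25 with an array left out, and EIF4A3 0.0700 with B, F and T. The relative value of MAGOH 000.2-X in CPT late was −2.49 to 0.25 with an array left out, above 0 without CPT 20 h. The cause was not tested.

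No paired analysis was possible because the labels carry no replicate numbers and no exposure was repeated within a group. A block on slide or scan date was not run, since the file gives neither. No signal over background was used here, so dim probe sets are limited by the filter alone. Leaving out 1 array leaves DMSO or CPT late with a lone array, which is assumed to vary like the other groups.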
